A study of Gallus gallus with 7 samples.

Results

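The 7300 methylation segments that lie on chicken chromosomes 6, 7, 8 and 9 make up 13.8% of the 53008 segments in the deposited table. All segments with one of these 4 chromosome labels were taken, with no filter on p, q or difference. A segment is a short stretch of DNA over which the authors averaged the percent methylation of at least 10 CpG positions in each group, where a position is one measured cytosine of either strand. The groups were heat-conditioned chicks, held at 39 °C for 24 h on day 3 after hatch (3 libraries, numbered 1-2, 3 and 4), and non-conditioned chicks (4 libraries, numbered 1 to 4). Microglia, brain-resident immune cells of the macrophage lineage, were sorted from the anterior hypothalamus of chicks of both groups on day 10, before any LPS was given. Per the labels, cells were pooled from 10 to 12 chicks and 15 to 30 ng of DNA entered each library, and how the conditioned library numbered 1-2 arose is not stated. For chromosomes 6 to 9 only the authors' group means were used here, with no library values, so no segment mean below has an SD and no test over libraries was possible. The read depth behind the values is unknown. The labelled cell type was not checked, since no marker gene could be placed on the build of the files.

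In vertebrate genomes most CpGs are methylated, while CpG-rich stretches, many of them at promoters, are usually kept free of methylation. DNA methyltransferases set and copy the mark, and TET enzymes oxidise it on the way to removal. Reduced representation bisulfite sequencing (RRBS) reads fragments around a CpG-containing restriction site and therefore samples CpG-rich DNA far more than the rest of the genome. Chicken chromosomes span a wide range of sizes: the large macrochromosomes are comparatively AT-rich and gene-poor, the small microchromosomes are GC-rich and gene-dense, and chromosomes 6 to 9 are intermediate in size.

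Chromosomes 6 to 9 also held an intermediate number of segments for their length, and segments grew denser from the longer to the shorter of them. Between the first and the last segment, chromosome 6 held 1889 segments over 34.9 Mb, or 54.2 per Mb, and chromosome 7 held 1944 over 36.9 Mb, or 52.7 per Mb. Chromosome 8 held 1851 over 29.9 Mb, or 61.9 per Mb, and chromosome 9 held 1616 over 23.5 Mb, or 68.7 per Mb. Together they had 58.3 segments per Mb, against 35.5 per Mb on chromosomes 2, 3 and 5 and 105 per Mb on chromosomes 14 to 20. The order of the sets was not free of overlap: chromosome 5 alone had 53.6 per Mb, above chromosome 7, and chromosome 16, with 37 segments, had 63.2 per Mb. These densities are descriptions of 1 table, and no test over chromosomes was made. The segments covered 485 kb, or 0.388% of the span, and held 93309 CpG positions.

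The segments themselves were alike in size on all 4 chromosomes. Their median length was 47, 48, 49 and 47 bp on chromosomes 6, 7, 8 and 9, and the median number of CpG positions was 11 on each. The table's minimum shaped this distribution, since 3452 of the 7300 segments (47.3%) had exactly 10 positions and 586 (8.03%) had 20 or more. CpG positions were packed at a median of 26.9 per 100 bp within a segment. The segment with the most positions of all lay on chromosome 8 at 19881293 to 19881731, with 79 positions over 439 bp and authors' means of 5.34% in heat-conditioned and 5.44% in non-conditioned microglia. Its counterparts on the other chromosomes were also nearly unmethylated in both groups. On chromosome 6 the segment at 2776388 to 2776551 (47 positions) had 1.71% in heat-conditioned and 4.24% in non-conditioned microglia. On chromosome 7 the segment at 22318884 to 22319008 (48 positions) had 1.35% in heat-conditioned and 3.14% in non-conditioned microglia. On chromosome 9 the segment at 23714079 to 23714245 (54 positions) had 2.53% in heat-conditioned and 3.01% in non-conditioned microglia.

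Segments were concentrated in a few 1-Mb windows. Over the 128 windows the number of segments ran from 3 to 268, with a median of 42.5. The densest window of chromosome 7 was 22000001 to 23000000 with 268 segments, and that of chromosome 6 had the same coordinates with 252. The densest window of chromosome 9 was 15000001 to 16000000 with 216 segments, and that of chromosome 8 was 20000001 to 21000000 with 141. On all 4 chromosomes this window lay between 60.9% and 68.4% of the way from the first to the last segment. The far end of each chromosome, as numbered in the assembly, was denser than its near end. The last 2 Mb of the span held 65, 101, 103 and 132.5 segments per Mb on chromosomes 6, 7, 8 and 9, and the first 2 Mb held 24, 28, 37.5 and 59 per Mb.

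**Figure D1:**
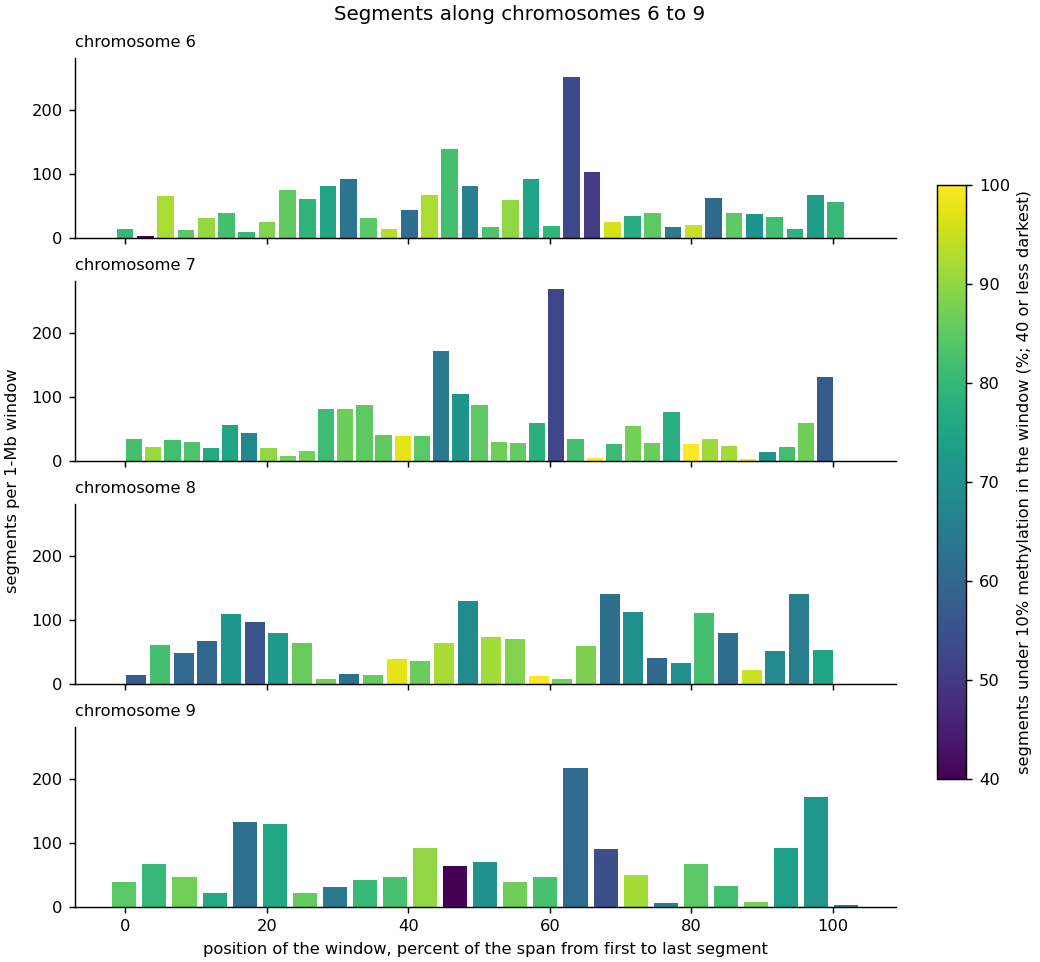
Number of segments in each 1-Mb window (bar height) along chromosomes 6 to 9, placed by percent of the span from the first to the last segment; colour gives the share of the window's segments with a mean under 10%. The tallest bars, 252 segments on chromosome 6 and 268 on chromosome 7, stand near 60% of the span and are among the darker ones, with 53.2% and 52.6% of segments under 10%.

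Most segments were nearly unmethylated. Classed by the mean of the 2 group means, 5387 of 7300 (73.8%) lay under 10%, 1814 (24.8%) between 10% and 80%, and 99 (1.36%) at 80% or more. The share under 10% was 73.8%, 75.4%, 73.3% and 72.4% on chromosomes 6, 7, 8 and 9. These shares sat between those of the larger and the smaller chromosomes: it was 79.4% on chromosomes 2, 3 and 5 (76.5% to 81.96% singly) and 66.2% on chromosomes 14 to 20 (51.4% to 69.9% singly). None of the 4 chromosomes lay inside either range. Segments at 80% or more were scarcest on chromosome 6, with 13 of 1889 (0.688%), and most frequent on chromosome 8, with 39 of 1851 (2.11%).

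**Figure D2:**
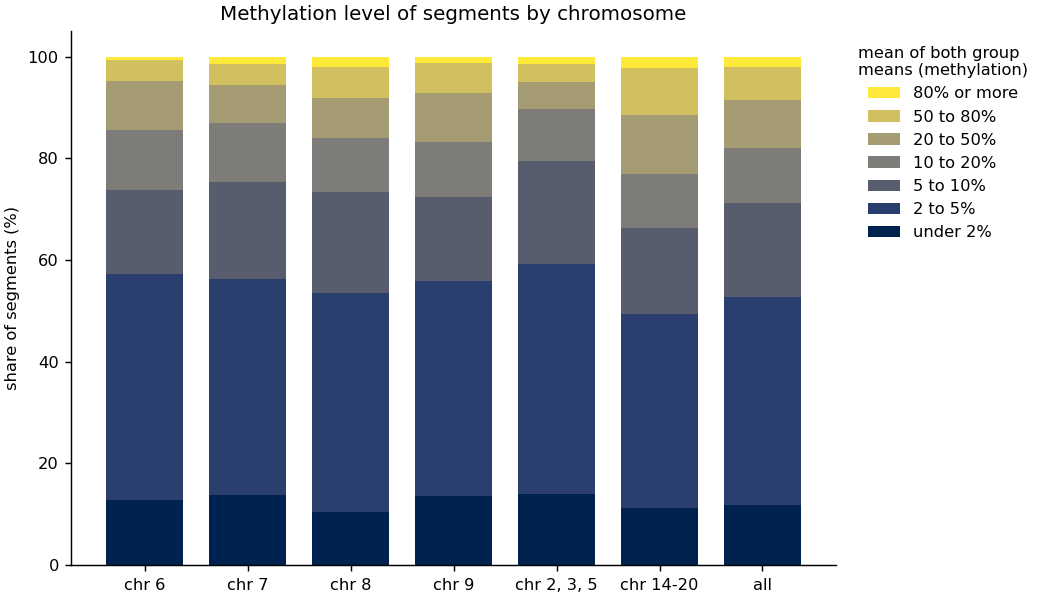
Share of segments (%) in each of 7 methylation level classes, for chromosomes 6, 7, 8 and 9, for chromosomes 2, 3 and 5 together, for chromosomes 14 to 20 together and for all segments; the class is the mean of both authors' group means. The lower 3 bands, segments under 10%, reach 72.4% to 75.4% on chromosomes 6 to 9, 79.4% on chromosomes 2, 3 and 5 and 66.2% on chromosomes 14 to 20.

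Methylation level went with the density of measured CpG positions within the segments. Positions count cytosines of either strand, so this is not the CpG density of the DNA. On chromosomes 6 to 9 the median density was 35.5 positions per 100 bp in segments under 2%, 30.8 at 2% to 5%, 23.8 at 5% to 10%, 20.8 at 10% to 20%, 18.1 at 20% to 50% and 14.7 at 50% to 80%. The 99 segments at 80% or more broke the order slightly, with 15.9. Because the minimum is a number of positions, sparse segments were also longer, with a median of 34 bp under 2% and 77 bp at 50% to 80%. Across segments of all parts of the genome the densities were close to these, for example 35.0 under 2% and 14.5 at 50% to 80%.

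The share of nearly unmethylated segments was lowest in the windows richest in segments, though it did not fall at every step. In the 5 windows with 150 or more segments, 59.2% of 1079 segments were under 10% and 11.1% were at 50% or more. In the 47 windows with 20 to 49 segments, 82.2% of 1560 segments were under 10% and 3.65% were at 50% or more. The shares under 10% were 77.0% in windows with 50 to 99 segments and 68.2% in those with 100 to 149. The 23 sparsest windows, with under 20 segments, had 78.9% under 10% and 6.51% at 50% or more. The densest window of chromosome 7 had 17.9% of its segments at 50% or more, and that of chromosome 8 had 17.0%. The 5-Mb bin from 20 to 25 Mb was the least unmethylated of chromosome 6, with 59.96% of 492 segments under 10%, and likewise of chromosome 7, with 62.03% of 395. The most unmethylated bin of the 4 chromosomes was 15 to 20 Mb of chromosome 8, with 90.1% of 222 segments under 10%.

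Neighbouring segments had like levels, and this faded with distance. Of 7296 gaps between consecutive segments, 4868 (66.7%) were 500 bp or less, and the median gap was 136 bp. Pearson's r between the levels of neighbours was 0.827 over 3297 pairs under 100 bp apart, 0.575 over 1569 pairs at 100 to 500 bp, 0.427 over 600 pairs at 500 to 2000 bp, 0.181 over 475 pairs at 2000 to 10000 bp and 0.159 over 1355 pairs farther apart. Spearman's rho, which weighs the many low segments more, was 0.425 for the closest pairs and 0.114 for the farthest. The group difference was much less alike between neighbours, with r of 0.163 under 100 bp and -0.0284 at 2000 to 10000 bp. Neighbours share libraries and often DNA fragments, so these values describe the table and have no p.

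Heat-conditioned microglia had lower means than non-conditioned microglia in most segments of the 4 chromosomes, and the typical difference was small. The heat-conditioned mean was lower in 5778 of 7300 segments (79.2%), against 77.6% of all 53008 segments, 81.1% on chromosomes 2, 3 and 5 and 76.2% on chromosomes 14 to 20. The median difference, heat-conditioned minus non-conditioned, was -1.86 percentage points, against -1.88 over all segments. The quartiles on chromosomes 6 to 9 were -3.72 and -0.737 points. The median of the segment means was 3.06% in heat-conditioned and, taken separately, 5.45% in non-conditioned microglia. By chromosome the share of lower segments was 79.5%, 79.3%, 78.8% and 78.96% on chromosomes 6, 7, 8 and 9, and the median difference was -1.83, -1.79, -1.95 and -1.89 points. The 4 medians lay within 0.152 points of each other.

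The library values of other chromosomes show how far this direction depends on single libraries. The site table has values for each library on chromosomes 1, 10, 11, 12 and 13 and the first part of chromosome 14, and 11570 segments lie there, with 78.7% lower and a median difference of -1.88 points. Over those segments conditioned libraries 3 and 4 averaged 9.34% and 10.3%, below all 4 non-conditioned libraries (12.3% to 13.1%), while conditioned library 1-2 averaged 13.2%, above all of them. Leaving out conditioned library 3 gave 75.7% lower and a median of -1.48 points, and leaving out conditioned library 1-2 gave 84.5% and -2.46 points. At a level of 2% to 5%, the most frequent one, conditioned libraries 1-2, 3 and 4 averaged 3.62%, 1.52% and 1.83%, and the non-conditioned libraries ran from 3.99% to 4.28%. The groups did not overlap at this level, nor at under 2%, at 5% to 10% or at 80% or more. Under 2% the margin was small, with 1.87% in library 1-2 and 1.97% in the lowest non-conditioned library. At 10% to 20% library 1-2 averaged 15.2%, within the non-conditioned range of 14.8% to 16.6%. Library 1-2 was the closest of its group to the non-conditioned libraries at 2% to 5%. The library averages above are means over segments. In these, nearly equal groups were rarer than in stretches laid out without regard to the groups (below). Segment by segment, every conditioned library lay on one side of every non-conditioned library in 19.2% of the 11570. How far the separation depends on the choice of segments was not tested. Which libraries carry the difference on chromosomes 6 to 9 was not tested.

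The direction depended on methylation level, and it turned at intermediate levels. On chromosomes 6 to 9 the heat-conditioned mean was lower in 86.2% of 920 segments under 2%, 89.0% of 3145 at 2% to 5%, 81.9% of 1322 at 5% to 10% and 69.8% of 818 at 10% to 20%. At 20% to 50% it was higher in 368 of 631 segments (58.3%), with a median difference of 4.04 points and a mean difference of 0.436 points. The quartiles there were -7.15 and 7.38 points, and 14 of the 631 (2.22%) differed by under 2 points. With so few differences near 0, the median falls on the side of the majority and is not a typical difference. At 50% to 80% the heat-conditioned mean was lower in 54.0% of 365 segments, and at 80% or more in 71.7% of 99. Counted by segment, the turn was seen most on chromosome 6, where 64.3% of 182 segments at 20% to 50% were higher. It was seen least on chromosome 8, with 51.4% of 146. Chromosomes 7 and 9 had 59.3% of 145 and 56.96% of 158. Of the 182 segments on chromosome 6, 26 lay in a single run of neighbours (below). With segments within 500 bp merged, the shares were 53.6%, 54.8%, 52.1% and 53.75% on chromosomes 6, 7, 8 and 9. Chromosome 6 was then no longer the highest. When segments were classed by the non-conditioned mean alone, 48.8% of 713 at 20% to 50% were higher, so the majority rests on which mean sets the class.

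At this level conditioned library 1-2 stood apart on the chromosomes with library values. Over 983 segments at 20% to 50% there, libraries 1-2, 3 and 4 of the conditioned group averaged 41.1%, 29.3% and 32.8%, and the non-conditioned libraries ran from 31.2% to 33.6%. Thus 1 conditioned library lay above, 1 below and 1 within the non-conditioned range. With all libraries 62.4% of those segments were higher in the conditioned group (median 4.66 points). Without conditioned library 1-2, 45.3% were higher (median -0.976 points), so there the direction turned on that library. With all libraries the mean difference of those segments was 1.68 points, and 2.75% differed by under 2 points. These medians too are therefore not typical differences. The part of library 1-2 in the values of chromosomes 6 to 9 was not tested.

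Segments in which the groups were nearly equal were rare at partly methylated levels, and rarer than among stretches laid out without regard to the groups. On chromosomes 6 to 9 the group means lay within 1 point of each other in 38.7% of segments under 2%, but in 7 of 631 (1.11%) at 20% to 50% and in 6 of 365 (1.64%) at 50% to 80%. Segments on the chromosomes with library values had a like share, 1.02% at 20% to 50%. A limit of 1 point does not mean the same at each level. On those chromosomes the median standard error of a group difference was 0.707 points under 2% and 6.51 points at 20% to 50%. Means near 0 also have little room to differ, so the shares are compared within a level. Blocks of 10 consecutive positions on those same chromosomes, laid out without regard to the groups and cut at gaps over 100 bp, had 13.95% of 3584 blocks within 1 point at 20% to 50%, and 16.8% of 2992 at 50% to 80%. At 20% to 50% the median difference was 0.758 points in these blocks and 4.66 points in the segments there. The mean differences were 0.373 and 1.68 points. Over all levels the blocks had 31.7% within 1 point, a median difference of -1.03 points and 71.6% lower, against 11.7%, -1.88 points and 78.7% for the segments there. Segments held 28.7% of the positions measured in all 7 libraries on those chromosomes. A median over segments is therefore not a median over all measured DNA, and fixed blocks of chromosomes 6 to 9 were not analysed here.

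**Figure D3:**
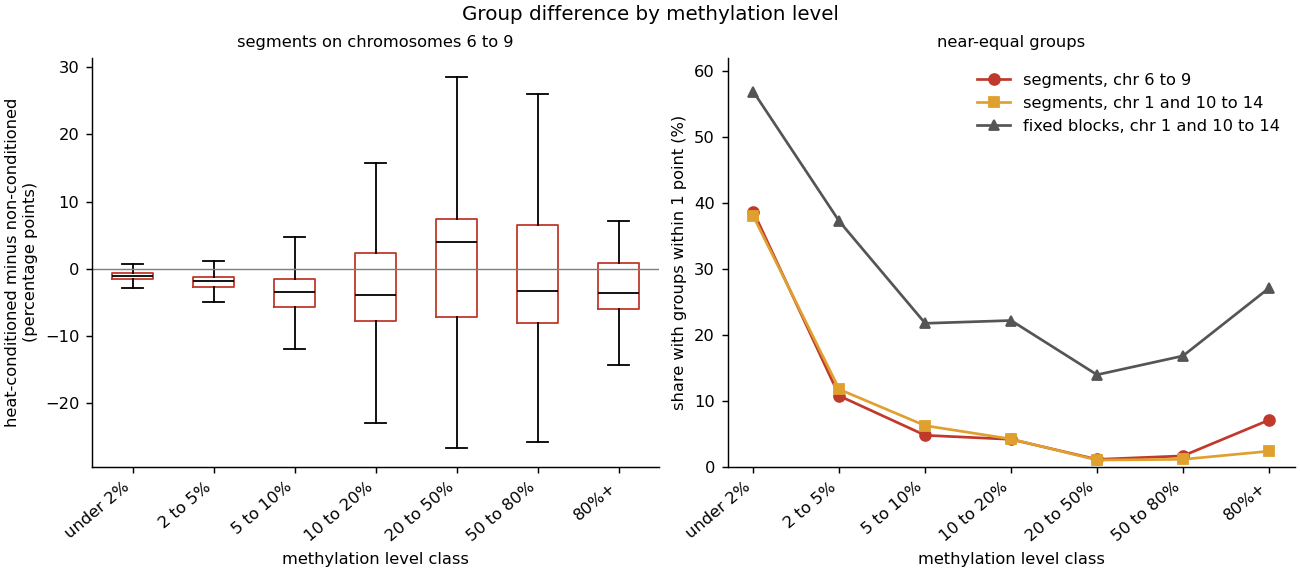
Left, difference of the authors' group means (heat-conditioned minus non-conditioned, percentage points) for the 7300 segments by level class; boxes give quartiles and median, whiskers reach 1.5 times the interquartile range and points beyond are not drawn. Right, share (%) of segments or of fixed 10-position blocks whose group means lie within 1 point; at 20% to 50% it is 1.11% for segments of chromosomes 6 to 9 and 13.95% for fixed blocks.

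As a yardstick for library error, the standard error of a group difference was taken from segments of like level on the chromosomes with library values. Its median was 0.707 points under 2%, 1.26 at 2% to 5%, 2.73 at 5% to 10%, 3.75 at 10% to 20%, 6.51 at 20% to 50%, 5.39 at 50% to 80% and 2.75 at 80% or more. On chromosomes 6 to 9, 5030 of 7300 segments (68.9%) differed by no more than 2 such standard errors. Beyond it, 1927 were lower and 343 higher in heat-conditioned microglia. On the chromosomes that gave the yardstick, the share within it was 67.4% of 11570, so chromosomes 6 to 9 did not hold a larger share beyond it. A yardstick of this kind carries any difference common to whole libraries and is not a test of a single segment. The share within it was 58.4% when conditioned library 1-2 was left out of the standard errors and 78.7% without conditioned library 4.

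The authors' deposited table gives 56 of the 7300 segments (0.767%) a q-value under 0.05, against 0.683% of all segments, so the share was near that of the whole table. Of the 56, 51 were lower in heat-conditioned microglia (0.621% of all segments were called lower) and 5 were higher (0.0623% of all were called higher). By chromosome the authors' deposited table calls 14 (0.741%), 21 (1.08%), 13 (0.702%) and 8 (0.495%) on chromosomes 6, 7, 8 and 9. How the authors obtained these q-values is not given in the sources used here. The deposited Mann-Whitney p was, for example, 9.05e-14 at chromosome 6, 22696503 to 22696564. Ranks of 3 against 4 libraries cannot give so small a value, so that test was not over libraries. Neither the deposited p nor the q-values are read here as tests over libraries. Set against the yardstick, 43 of the 56 differed by more than 2 median standard errors of their level class, and 16 by more than 2 upper-quartile ones. Of all 7300 segments, 68.9% lay within the first limit and 88.3% within the second. The calls were drawn from the same data as the differences, so these counts give them no separate support.

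The called segments mostly lay near the floor of methylation, as most segments did, and had more positions than most. A level under 10% was found in 54 of the 56, against 73.8% of all 7300 segments. Their median number of positions was 20. Among the 51 lower ones the median was 1.39% in heat-conditioned and 4.58% in non-conditioned microglia, and 41 had a heat-conditioned mean under 2%. Over all 7300 segments the lower quartile of the heat-conditioned mean was 1.65% and its median 3.06%. Taking segments called lower also partly builds in a low heat-conditioned mean. Differences of the 51 ran from -13.6 to -1.11 points, and 2 were of 10 points or more. Only 1 of the 51 and 1 of the 5 higher ones had a level of 10% or more. Calls went with the number of positions, here as in the whole table. The authors' deposited table calls 2 of the 3452 segments with 10 positions (0.0579%) and 11 of 2353 with 11 to 14 (0.467%). It calls 13 of 909 with 15 to 19 (1.43%), 20 of 506 with 20 to 29 (3.95%) and 10 of 80 with 30 or more (12.5%). Over all segments the shares in the same order were 0.0574%, 0.269%, 1.60%, 4.48% and 8.92%. The number of positions was a median of 10 in the 52 segments lower by 20 points or more and 11 in the 364 lower by 10 points or more, against 11 in all 7300. At the threshold, q was 0.0489 in the authors' deposited table for chromosome 7, 22275688 to 22275787 (3.86% in heat-conditioned and 6.55% in non-conditioned microglia). It was 0.0501 just outside, for chromosome 7, 22627449 to 22627498 (1.33% in heat-conditioned and 5.05% in non-conditioned microglia).

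**Figure D4:**
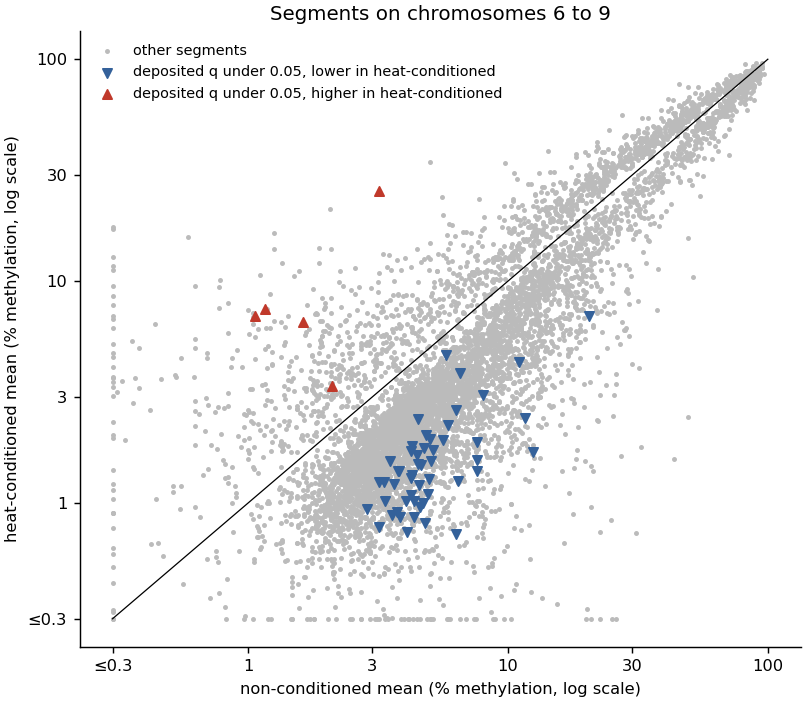
Authors' mean methylation (%) of each segment on chromosomes 6 to 9 in heat-conditioned (vertical) and non-conditioned microglia (horizontal), on log axes with values under 0.3% drawn at 0.3%; triangles mark the 56 segments with a deposited q under 0.05. The 51 called lower sit below the line of equality, mostly at 3% to 8% in non-conditioned microglia, and 5 sit above it.

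On chromosome 6 the 3 segments with the smallest q went both ways. At 22696503 to 22696564 (22 positions) the means were 1.28% in heat-conditioned and 4.98% in non-conditioned microglia (q = 7.6e-09 in the authors' deposited table). That is the smallest q of the 4 chromosomes. At 22540203 to 22540251 (19 positions), in the same 1-Mb window, they were 6.97% in heat-conditioned and 1.06% in non-conditioned microglia (q = 0.000102 in the authors' deposited table). The pair thus lay 156 kb apart with opposite directions. At 7930700 to 7930936 (34 positions) the means were 1.30% in heat-conditioned and 4.25% in non-conditioned microglia (q = 0.000706 in the authors' deposited table).

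On chromosome 7 all 3 were lower in heat-conditioned microglia. The segment at 22326779 to 22326832 (13 positions) had 1.69% in heat-conditioned and 12.5% in non-conditioned microglia (q = 1.91e-05 in the authors' deposited table), a difference of -10.8 points. The segment at 10958006 to 10958074 (23 positions) had 1.49% in heat-conditioned and 4.49% in non-conditioned microglia (q = 5.81e-05 in the authors' deposited table). The segment at 16305484 to 16305519 (13 positions) had 1.77% in heat-conditioned and 4.73% in non-conditioned microglia (q = 6.47e-05 in the authors' deposited table). The first of these had the largest difference of the 3 and the highest non-conditioned mean.

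Chromosomes 8 and 9 gave segments of the same kind, all lower in heat-conditioned microglia. On chromosome 8, the segment at 28745921 to 28745974 (22 positions) had 0.81% in heat-conditioned and 4.79% in non-conditioned microglia (q = 8.59e-06 in the authors' deposited table). The segments at 19766789 to 19766848 (22 positions) and 27684394 to 27684520 (34 positions) differed by -3.66 and -1.93 points (q = 0.000388 and 0.000712 in the authors' deposited table). The second of these was the lowest in level of the 12 segments chosen by q, with 0.935% in heat-conditioned and 2.87% in non-conditioned microglia. On chromosome 9, the segment at 11946831 to 11946899 (22 positions) had 1.57% in heat-conditioned and 7.61% in non-conditioned microglia (q = 5.19e-07 in the authors' deposited table). The segments at 19652230 to 19652301 (32 positions) and 23752317 to 23752358 (21 positions) differed by -2.38 and -3.13 points (q = 3.74e-05 and 0.000107 in the authors' deposited table).

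The 5 segments called higher were few enough to give in full; apart from the one already described on chromosome 6, they were chosen after their values were seen. On chromosome 7 the segment at 16405949 to 16406020 (14 positions) had 25.4% in heat-conditioned and 3.18% in non-conditioned microglia. Its difference of 22.3 points was the largest of all 56 calls in either direction. On chromosome 6 the segment at 8090447 to 8090480 (12 positions) had 7.49% in heat-conditioned and 1.16% in non-conditioned microglia, and that at 15447933 to 15447986 (17 positions) had 6.54% in heat-conditioned and 1.62% in non-conditioned microglia. On chromosome 8 the segment at 1787992 to 1788060 (23 positions) had 3.35% in heat-conditioned and 2.11% in non-conditioned microglia. Chromosome 9 had no such segment among its 8 calls. The q-values of these last 4 segments in the authors' deposited table were 0.000434, 0.0136, 0.00217 and 0.00297.

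The largest differences between the group means lay at segments with 10 to 12 positions, and none of the 6 named had a q under 0.05 in the authors' deposited table. All 6 passed when the deposited Mann-Whitney p was adjusted by Benjamini-Hochberg over all segments, with values from 1.54e-06 to 0.023, a route by which 41.9% of all segments passed. The largest toward lower methylation was at chromosome 9, 4675125 to 4675209 (10 positions), with 2.44% in heat-conditioned and 49.5% in non-conditioned microglia (q = 1 in the authors' deposited table). At chromosome 8, 1270597 to 1270666 (12 positions), the means were 1.58% in heat-conditioned and 43.7% in non-conditioned microglia (q = 0.28 in the authors' deposited table). At chromosome 6, 18705345 to 18705408 (12 positions), they were 10.4% in heat-conditioned and 51.5% in non-conditioned microglia (q = 1 in the authors' deposited table). In the first 2 of these the heat-conditioned mean was under 5%, the level of most segments. Toward higher methylation, the largest was at chromosome 8, 5947104 to 5947176 (10 positions), with 76.9% in heat-conditioned and 45.5% in non-conditioned microglia (q = 1 in the authors' deposited table). At chromosome 6, 9165431 to 9165486 (10 positions), the means were 34.4% in heat-conditioned and 5% in non-conditioned microglia (q = 1 in the authors' deposited table). At chromosome 9, 23411539 to 23411568 (10 positions), they were 56.1% in heat-conditioned and 27.6% in non-conditioned microglia (q = 0.983 in the authors' deposited table).

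Differences of 10 points or more were found in 364 segments toward lower methylation (4.99%, against 5.53% of all segments) and in 163 toward higher methylation (2.23%, against 3.07% of all). At 20 points or more there were 52 lower and 15 higher segments of the 7300, against 382 lower and 205 higher of all 53008. Of the 52, 10 had a heat-conditioned mean under 2%. On the chromosomes with library values, 115 segments differed by 20 points or more, and in 39 of them every conditioned library lay on one side of every non-conditioned library (33.9%, against 19.2% of all 11570 segments there). The 115 were picked by the difference of the same library values, so a higher share is partly built in. The median SD over libraries in those 115 was 9.04 points in the conditioned and 17.8 points in the non-conditioned group. For differences of this size on chromosomes 6 to 9 no library values were used.

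Along the chromosomes the heat-conditioned mean was lower in the majority of segments of every 5-Mb bin. On chromosomes 6, 7 and 9, but not 8, that share was lowest in the bin with the smallest share of segments under 10%. The share of segments lower in heat-conditioned microglia ran from 70.7% (chromosome 6, 20 to 25 Mb) to 89.3% (chromosome 6, 35 to 40 Mb, with 56 segments) over the 27 bins of 5 Mb. The second lowest share, 71.6%, was in the 20 to 25 Mb bin of chromosome 7. These 2 bins also had the lowest share of segments under 10% on their chromosomes. So did 15 to 20 Mb of chromosome 9, with 66.8% under 10% and 73.8% lower. On chromosome 8 the bin with the lowest share under 10% (25 to 30 Mb, 68.2%) had 81.2% lower. The lowest share lower on that chromosome was 76.3%, at 20 to 25 Mb. The median difference stayed between -2.45 points (chromosome 8, 25 to 30 Mb) and -1.60 points (chromosome 7, 20 to 25 Mb). In the last 2 Mb of the span 86.9%, 81.7%, 83.0% and 81.1% of segments were lower on chromosomes 6, 7, 8 and 9, and in the first 2 Mb 83.3%, 83.9%, 81.3% and 88.1%. Both ends were thus above the interior, which had 77.6% to 78.8%, on each of the 4 chromosomes. The first 2 Mb held only 48, 56, 75 and 118 segments, and the last 2 Mb 130, 202, 206 and 265. The narrowest gap, in the first 2 Mb of chromosome 8, was 81.3% against 78.2%. Ends and interior were not compared by a test. The share lower was 70.1% in windows of 150 or more segments and 82.6% in windows of 20 to 49. Within segments at 2% to 5% these windows had 89.8% and 88.7%, at 10% to 20% 54.8% and 71.5%, and at 20% to 50% 29.3% and 40.6%. From the sparsest to the densest windows the share at 20% to 50% was 58.3%, 40.6%, 52.5%, 39.6% and 29.3%, so it did not fall steadily. The windows of 150 or more segments include the run on chromosome 6 described below, with 26 segments at this level.

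Merging segments within 500 bp of each other gave 2432 loci, of which 985 (40.5%) held a single segment and 75 held 10 or more. In 72 of these 75 loci most segments were lower in heat-conditioned microglia, in 2 the directions were even, and in 1 most were higher. These are counts of segments, and means weighted by positions did not always go the same way. Both even loci were higher by the weighted mean (0.992 and 0.189 points). So were some loci with most segments lower, for example chromosome 8, 4016334 to 4018792 (1.26 points) and chromosome 9, 4458788 to 4460184 (1.05 points). Over all 7300 segments 79.2% were lower, so a lower majority is no trait of the large loci. The locus in which most segments were higher was looked at more closely, after its values were seen.

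That locus was the run with the most segments on the 4 chromosomes, 39 segments with 538 CpG positions over 6.35 kb of chromosome 6, 22108524 to 22114870. It lies inside the densest window of the chromosome. Weighted by positions, its methylation was 31.0% in heat-conditioned and 26.3% in non-conditioned microglia. The heat-conditioned mean was higher in 31 of the 39 segments, with a median difference of 5.63 points and a range from -12.2 to 20.3. A middle stretch of 9 consecutive segments had levels under 15%, down to 5.1%, between flanks that reached 55.1%. In the middle stretch 5 of 9 segments were lower in heat-conditioned microglia, and in the flanks 27 of 30 were higher. No segment of the run was called, with a deposited q of 1 in each (authors' deposited table). Of the 39 levels 26 were between 20% and 50%, the class in which conditioned library 1-2 stood highest on the chromosomes with library values, and its part in this run was not tested.

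**Figure D5:**
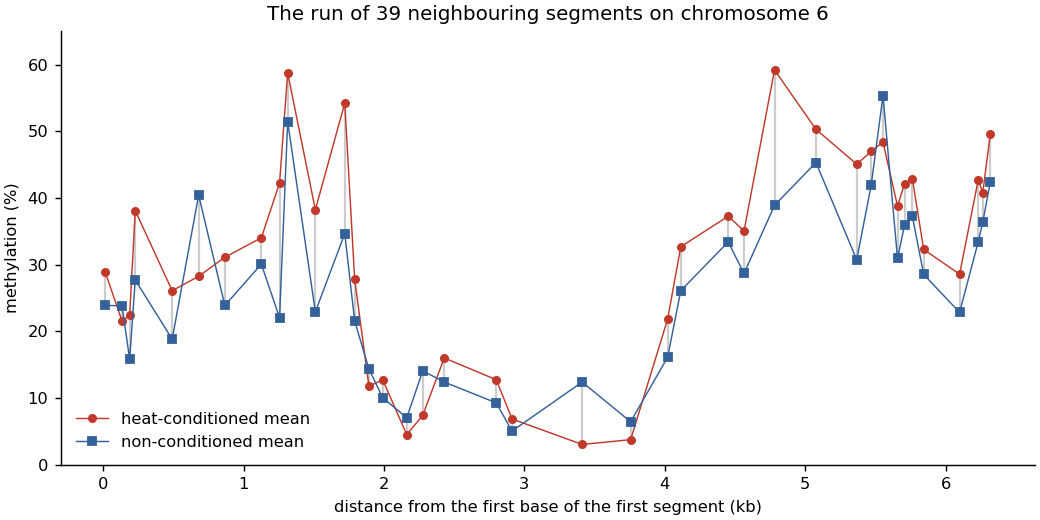
Authors' mean methylation (%) in heat-conditioned (circles) and non-conditioned microglia (squares) of the 39 neighbouring segments of the chromosome 6 run, by distance in kb from its first base; grey bars join the 2 means of a segment. The heat-conditioned mean is the higher one in 31 of 39 segments, 27 of them on the flanks of the low middle.

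Other large runs were mostly unmethylated, with most of their segments lower in heat-conditioned microglia. The next largest had 18 segments each, at chromosome 8, 20403360 to 20405822, with 6.39% in heat-conditioned and 7.73% in non-conditioned microglia, and at chromosome 6, 19696490 to 19697961, with 3.19% in heat-conditioned and 4.79% in non-conditioned microglia. In both, 15 of 18 segments were lower. The run at chromosome 7, 12795446 to 12797564, was uniform, with all 16 segments lower and a median difference of -1.78 points. With a wider join of 20 kb, the largest clusters were 139 segments over 202 kb at chromosome 7, 22178715 to 22380545, and 128 segments over 102 kb at chromosome 7, 16305352 to 16407204. In the first cluster methylation averaged 23.4% in heat-conditioned and 23.2% in non-conditioned microglia, with 78 segments lower and 61 higher. In the second it averaged 12.2% in heat-conditioned and 12.6% in non-conditioned microglia, with 83 lower and 45 higher. The first cluster held 2 called segments and the second 3, among them the one at 16405949 described above. Of the 7300 segments 0.767% were called, and of all segments 0.683%. The calls are too few to be read as a trait of either cluster.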

How the data were processed

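Per the submitters' processing notes, reads were handled with Trimmomatic, Bismark 0.22.3, Bowtie and HOMER on galGal5; the tool and settings behind the segments are not given in the sources used here. The deposited values were read as the percent methylation of each position and library, and the mean percent methylation of each group per segment. The file headers do not say whether libraries were scaled, and no scaling was applied here. The authors' table also holds p-values, a q-value and a difference, a score in percentage points that runs non-conditioned minus conditioned; here differences run heat-conditioned minus non-conditioned. The authors' segment starts count from 0 and are given counted from 1. Group means of 11570 segments were matched to the site values within 0.01 points. The number of calls behind a percent is unknown, so no interval is given.

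Levels were classed by the mean of both group means. The standard error of a difference came from library means of each segment; that step was tested on simulated data. Regions were named by rule: the 3 smallest q per chromosome under 0.05, the 3 largest differences each way, the segment with most positions and the densest window. The chromosomes, classes and rules were chosen with earlier results of these data known, and the fixed blocks, their gap limit and the merged runs after the values were seen. The gene table in hand is of another build, so no gene or sequence was assigned. The 7 libraries are separate samples per the labels. Alternatives were minimum positions, level limits, weighting, merging within 500 bp, other thresholds and leaving out libraries. Computing used Python 3.11.15, numpy 2.4.6 and pandas 2.3.3.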

Additional observations from a re-analysis of the deposited data

Results flagged for a closer look

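Among 8 sets of 4 non-conditioned library means over segments on chromosomes 1 and 10 to 14, 1 had a library far from the rest. At a level of 50% to 80%, non-conditioned library 1 averaged 62.4% against 65.3% to 65.7% in the other non-conditioned libraries (gap over range 0.888). Conditioned libraries 1-2, 3 and 4 averaged 68.4%, 59.6% and 63.6% there. Chance flags about 1 in 20 such sets, but the 8 sets share the same libraries and are not independent.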

How the results depend on the processing

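No paired analysis was possible because chromosomes 6 to 9 have group means only in the values used here. The 58.3 segments per Mb became 19.4 with segments within 500 bp merged and 4.68 with at least 20 positions. The 73.8% under 10% became 69.3% by the non-conditioned mean alone, 85% with a boundary at 20%, 75.4% weighted by positions and 82.3% with at least 20 positions. The 79.2% lower became 87.0% with at least 20 positions, 78.1% at levels of 2% or more, 57.6% at levels of 10% or more and 80.5% weighted by positions; merging gave 78.8%. The median difference of -1.86 points became -2.13 with at least 20 positions and -2.95 at levels of 10% or more, and the mean weighted by positions was -1.95. In the authors' deposited table, the 56 calls became 32 at q under 0.01, 30 with at least 20 positions and 12 with a difference of at least 5 points. The deposited Mann-Whitney p with Benjamini-Hochberg adjustment over all segments gave 3083 (2704 lower), 42.2% of the 7300 against 41.9% of all. The 68.9% within 2 standard errors became 88.3% with upper-quartile errors and 58.4% to 78.7% without single libraries. At 20% to 50%, alternatives chosen after seeing the data turned the 58.3% higher into 48.8% by the non-conditioned mean, 63.6% by the conditioned mean, 66.7% with at least 20 positions (45 segments) and 53.5% after merging. By the non-conditioned mean it was 48.4% on chromosome 7 and 44.1% on chromosome 8, and with at least 20 positions 33.3% on chromosome 7 (6 segments). The cause of these shifts was not tested, beyond the changed sets of segments themselves. No alternative turned the overall direction. Of the 22 named segments, 8 passed by the Mann-Whitney route but not by the deposited q, among them all 6 named for the size of their difference.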
